A study of Mus musculus with 12 samples.

Results

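The genes of plasma membrane repair were followed in gastrocnemius, a calf muscle, of male mice lacking or carrying ankyrin-B in skeletal muscle. The set comprised 10 genes taken by symbol from a table of 24528 genes: Dysf, Myof, Trim72, Anxa1, Anxa2, Anxa5, Anxa6, Cav3, Ahnak and Capn3. All 10 were listed and all 10 passed the filter on low values, 10 or more estimated reads in 6 or more libraries, as did 12203 genes in all. Estimated reads were recovered approximately by undoing the transformation of the table, whose log2 scale compresses changes of genes with few reads. The KO group held 6 mice of genotype Ank2f/f; HSA-Cre+, and the WT group held 6 littermates of genotype Ank2f/f. Both groups therefore carried floxed Ank2 alleles and were 4 months old, and the groups differed by a transgene in which a human skeletal actin promoter drives Cre recombinase in skeletal muscle fibres. No group with the transgene and unfloxed alleles is among these libraries, so effects of Cre and of Ank2 loss cannot be told apart. Cells other than fibres keep their Ank2 alleles in such a model, and poly-A RNA of the whole muscle was sequenced, with 1 library per mouse.

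Muscle fibres tear at their plasma membrane, the sarcolemma, during contraction and reseal it within seconds to minutes. Calcium entering at the wound brings vesicles, the ferlin dysferlin, the tripartite-motif protein MG53 and annexins to the site, where they form a patch and a cap, while calpains cut proteins at the lesion. Loss of dysferlin, calpain-3 or caveolin-3 causes muscle disease in humans.

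The tissue and genotype labels were checked first. Ank2 averaged 7.74 ± 0.19 in KO libraries and 8.88 ± 0.35 in WT libraries (SD, n = 6 each) in the log2 units of the table, and the change was -1.15 (SE 0.14, limma adjusted p = 0.000886). Every KO library lay below every WT library. With the transformation undone, KO libraries averaged 33.1% ± 7.1 of the WT mean of Ank2 (SD, n = 6). They ran from 26.3% to 44.3%, and WT libraries from 63.4% to 128%. The 8 myofibre markers took 208320 to 230000 estimated reads per 1000000 in KO libraries and 202200 to 235850 reads per 1000000 in WT libraries. Markers of neutrophils and lymphocytes were at or near 0, with at most 16.0 and 6.02 estimated reads for any of them in any library. Estimated depth ran from 13424458 to 18709281 reads in KO and from 12268065 to 16904947 reads in WT (exact two-sided permutation p = 0.0758 for the means). KO libraries had more genes above the lowest value, 15455 ± 359 against 14884 ± 123 in WT (SD, n = 6 each; exact two-sided permutation p = 0.00866). The 95th percentile of tested genes was lower in KO, 11.43 ± 0.08 against 11.51 ± 0.03 in WT (exact two-sided permutation p = 0.0346). The median of tested genes was also lower, 8.247 ± 0.005 in KO against 8.257 ± 0.007 in WT (exact two-sided permutation p = 0.0195).

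Among the 10 repair genes, Capn3 fell in KO muscle and the other 9 did not pass the test. In limma with Benjamini-Hochberg adjustment over all 12203 genes at a threshold of 0.05, 758 genes (6.21%) were called, 381 (3.12%) higher and 377 (3.09%) lower in KO. That number moved with single libraries, to 1516 without KO 2 and to between 194 and 367 without KO 1, KO 3, KO 6, WT 1, WT 2, WT 3, WT 5 or WT 6. The members gave 1 call in 10, lower in KO. At an unadjusted p at or under 0.05, Capn3 alone of the 10 qualified, against 3176 of all tested genes (26.0%). Of the 10 estimates, 7 were positive and 3 negative, with a median of 0.05, beside a median of -0.01 over all tested genes. The median absolute change was 0.14 for the members and 0.11 for all tested genes. In bulk tissue, fewer cells of a type and less RNA per cell cannot be told apart.

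**Figure D1:**
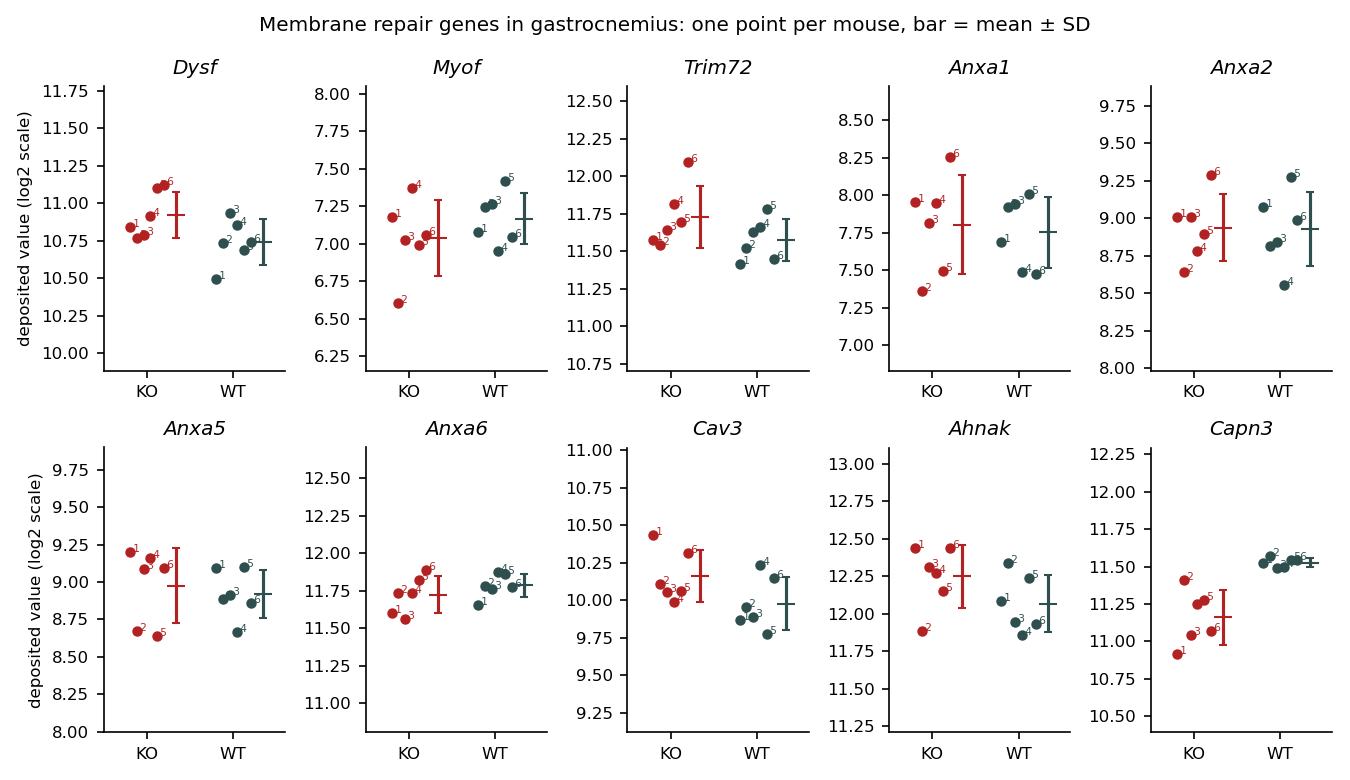
Deposited values on the log2 scale (vertical axis, the same height of scale in every panel) of the 10 membrane repair genes in 6 KO and 6 WT muscles. Points are mice, marked with their replicate number, and bars are mean ± SD; KO and WT points of Capn3 do not overlap, and those of the other 9 genes do.

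Capn3 encodes calpain-3, a muscle protease that binds titin and is mutated in a limb-girdle muscular dystrophy. Its lowest, median and highest values were 10.91, 11.16 and 11.41 in KO libraries and 11.49, 11.53 and 11.57 in WT libraries. In these deposited values all 6 KO libraries lay below all 6 WT libraries, a separation seen in 302 tested genes (2.47%) in either direction. KO 2 came nearest to WT. The mean was 11.16 ± 0.18 in KO and 11.53 ± 0.03 in WT (SD, n = 6 each), so that KO minus WT was -0.37 (SE 0.08, 95% interval -0.54 to -0.19, limma adjusted p = 0.0235). The exact two-sided permutation p was 0.00216, the smallest that 924 assignments can give. As scaled reads, KO libraries averaged 77.4% ± 10.2 of the WT mean (SD, n = 6), from 64.2% in KO 1 to 92.0% in KO 2, while WT libraries ran from 97.2% to 103%.

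In the deposited values, Capn3 was more spread among KO than among WT libraries. Its SD in KO was 5.77 times that in WT, while the median ratio over all tested genes was 1.14. Of the tested genes, 0.197% had a higher ratio than Capn3. Its KO SD of 0.18 was within the range of the members in KO, from 0.12 for Anxa6 to 0.33 for Anxa1. Its WT SD of 0.03 was the smallest of the members, with Anxa6 next at 0.08. The ratio also depended on the scale. As levels per library total and exon length, the SD of Capn3 was 2.94 in KO and 2.34 in WT. On that scale Capn3 ran from 25.44 to 33.66 in KO libraries and from 33.29 to 39.73 in WT libraries. The groups thus overlapped there, unlike in the deposited values. Between 2186 and 2927 estimated reads per library stood behind the Capn3 values. The order of the KO libraries was the same for Capn3 as for the 95th percentile of their tested genes. That percentile ran from 11.32 in KO 1 to 11.54 in KO 2, and its part in the fall and spread of Capn3 was not tested. After quantile normalization, the change of Capn3 was -0.29 (limma adjusted p = 0.0271). The fall kept its size without any 1 library, from -0.42 without KO 2 to -0.32 without KO 1. Its call was lost without KO 3 (adjusted p = 0.0595), KO 6 (0.0645), WT 2 (0.056) or WT 3 (0.0516), and without KO 2 the adjusted p was 0.00422.

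**Figure D2:**
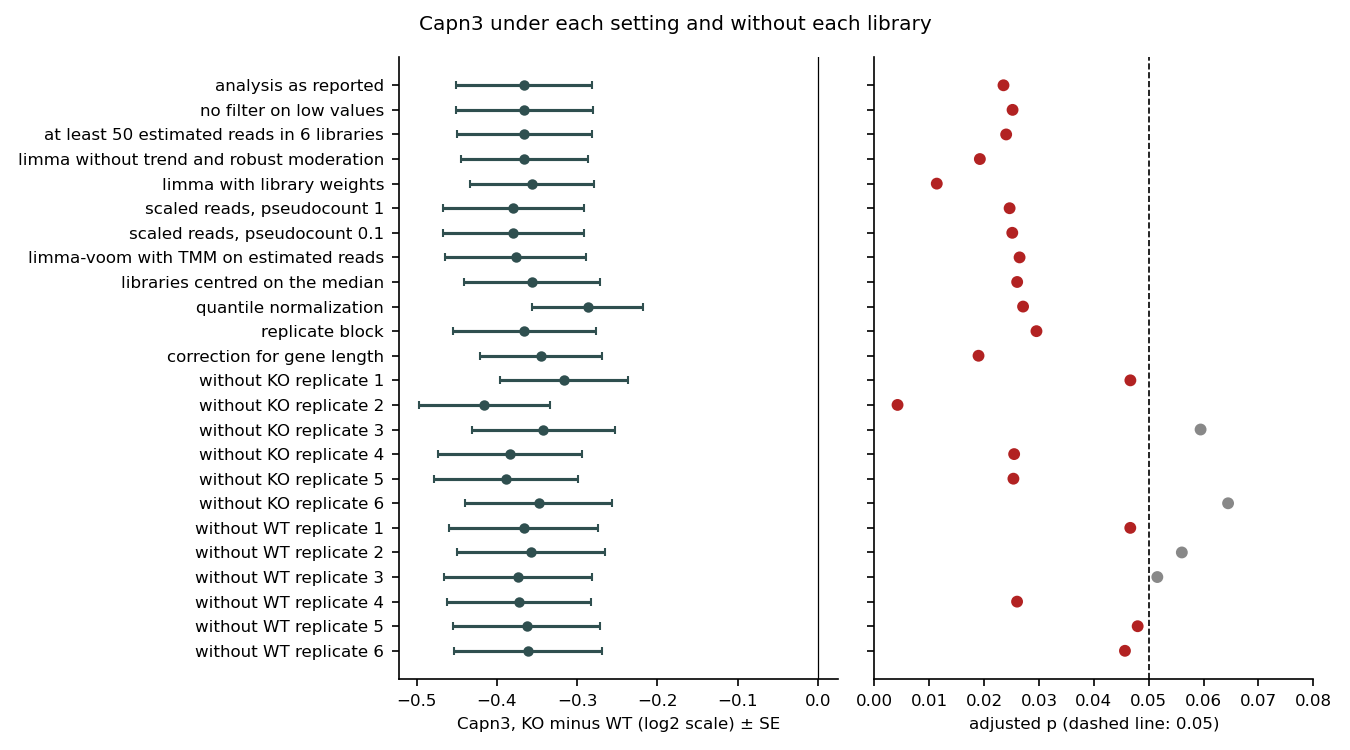
Change of Capn3 in KO minus WT ± SE (left, log2 scale) and its limma adjusted p (right, dashed line at 0.05) in the analysis as reported, under 11 other settings and without each of the 12 libraries. The change stays between -0.42 and -0.29, and the adjusted p passes 0.05 without KO 3, KO 6, WT 2 or WT 3.

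Capn3 lies on the plus strand of chromosome 2 from 120456019 to 120504913 (mm10, GENCODE M21). It has 5023 annotated exonic bases, of which 386 (7.68%) are shared with the upstream glucosidase gene Ganc on the same strand. Ganc averaged 9.48 ± 0.19 in KO and 9.50 ± 0.19 in WT (SD, n = 6 each), and KO minus WT was -0.02 (SE 0.10, limma adjusted p = 0.925). Coding transcripts start at more than 1 place. The one with the longest protein, of 821 residues, starts at 120463579 with a second of 729 residues, and 4 others of 709 to 785 residues start between 120476918 and 120476976. The deposited value is 1 number per gene, so it does not separate these starts.

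The 250 bases before the RefSeq starts of both Capn3 promoters are shown because Capn3 is the member that changed (GRCm38, plus strand, 5′ to 3′). Capitals mark matches to CANNTG, the E-box read by myogenic bHLH factors, and to CTANNNNTA, a pattern that the consensus of the MEF2 muscle factors falls under. The first window, chr2:120463343-120463592, lies at the start of the 821-residue form and runs a few bases past the GENCODE start, as the RefSeq start is further downstream. The second is chr2:120476659-120476908.
Capn3 first start: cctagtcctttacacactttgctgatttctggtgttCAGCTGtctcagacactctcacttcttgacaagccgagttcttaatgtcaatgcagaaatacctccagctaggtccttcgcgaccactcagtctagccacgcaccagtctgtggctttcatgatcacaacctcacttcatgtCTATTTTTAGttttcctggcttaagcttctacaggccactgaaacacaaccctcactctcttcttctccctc
Capn3 second start: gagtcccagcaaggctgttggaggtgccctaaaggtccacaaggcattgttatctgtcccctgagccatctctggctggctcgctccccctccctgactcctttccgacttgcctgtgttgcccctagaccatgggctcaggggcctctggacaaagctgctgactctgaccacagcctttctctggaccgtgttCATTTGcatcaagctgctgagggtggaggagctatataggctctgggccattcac
The first window holds 1 CANNTG match and 2 CTANNNNTA matches, 1 on each strand, which overlap. The second window holds 1 CANNTG and no CTANNNNTA. Searched on both strands, CANNTG occurs in 66.2% and CTANNNNTA in 19.0% of 32851 RefSeq promoter windows of this length. Of the other members, 8 had a window: CANNTG occurred 3 times in that of Trim72, 2 times in that of Cav3 and 1 time in that of Anxa5, and CTANNNNTA occurred in those of Anxa2, Cav3 and Dysf. A match is a run of letters and no measured binding site.

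The 3 tested genes whose values were most like those of Capn3 over the 12 libraries were Slc30a9, Rps6ka2 and Psme4. Likeness was the root mean square difference of values scaled to mean 0 and SD 1 in each gene, which was 1.35 for the median tested gene. It was 0.168 for Slc30a9, a zinc transporter gene (KO minus WT -0.50). For Rps6ka2, a ribosomal S6 kinase gene, it was 0.191 (KO minus WT -1.36), and for Psme4, the gene of a proteasome activator, also 0.191 (KO minus WT -0.77). All 3 were lower in KO, with KO 1 the lowest and KO 2 the highest KO library as for Capn3, which follows from choosing them by likeness over the same libraries and is given as a description.

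The ferlins are large calcium-binding membrane proteins, and neither member passed the test. Dysf (chr6:84008590-84211060, plus strand, mm10), which encodes dysferlin, had lowest, median and highest values of 10.77, 10.88 and 11.12 in KO and 10.49, 10.74 and 10.93 in WT. The groups overlapped, although all 6 KO libraries lay above the WT median. The change was 0.18 (SE 0.09, 95% interval -0.01 to 0.37, limma adjusted p = 0.216). Myof (chr19:37899036-38043577, minus strand) encodes myoferlin, a relative of dysferlin that acts in myoblast fusion. Its values were 6.60, 7.04 and 7.38 in KO and 6.95, 7.16 and 7.42 in WT, a change of -0.13 (95% interval -0.37 to 0.11, adjusted p = 0.482). KO 2 was low for Myof. Its change was -0.04 without KO 2, -0.08 without WT 5 and -0.20 without KO 4, and it ran from -0.29 on scaled reads to -0.04 after the correction for gene length, without a call in any of these. Between 22.1 and 106 estimated reads per library make it the least precisely counted member.

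Trim72 (chr7:128003949-128011033, plus strand, mm10) encodes MG53, the muscle protein that nucleates the repair patch. Its lowest, median and highest values were 11.54, 11.67 and 12.10 in KO and 11.41, 11.57 and 11.78 in WT. KO 6 stood above all other libraries and KO 4 just above the WT range, and the other 4 KO libraries lay within it. The change was 0.15 (SE 0.10, 95% interval -0.06 to 0.36, limma adjusted p = 0.343). It was 0.08 without KO 6 and 0.24 after quantile normalization. Of the 2233 exonic bases of Trim72, 617 (27.6%) overlap an annotated antisense transcript, Gm15533, and libraries without strand cannot divide such reads. Shared exonic bases with antisense transcripts came to at most 352 (4.23%) for Dysf and 98 (2.63%) for Anxa2, and the remaining members other than Capn3 shared none.

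The annexins bind phospholipids when calcium rises and gather at membrane wounds, and their 4 members gave no call. Anxa1 (chr19:20373428-20390944, minus strand, mm10), which encodes annexin A1, had values of 7.36, 7.88 and 8.26 (lowest, median and highest) in KO and 7.47, 7.81 and 8.01 in WT. Its change was 0.05 (SE 0.14, 95% interval -0.25 to 0.35, limma adjusted p = 0.847). The KO range enclosed the WT range on both sides. Anxa2 (chr9:69453620-69491795, plus strand), the gene of annexin A2, which forms a complex with S100A10, had 8.64, 8.95 and 9.29 in KO and 8.56, 8.92 and 9.28 in WT. The change of Anxa2 was 0.01 (95% interval -0.24 to 0.26, adjusted p = 0.966), the smallest of the 10 in size.

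Anxa5 (chr3:36448923-36475894, minus strand, mm10), whose protein annexin A5 forms lattices on exposed phosphatidylserine, had values of 8.64, 9.09 and 9.20 in KO and 8.67, 8.90 and 9.10 in WT. KO 2 and KO 5 stood apart below the other KO libraries at 8.67 and 8.64. The change was 0.06 (95% interval -0.17 to 0.28, limma adjusted p = 0.767). Anxa6 (chr11:54979108-55033445, minus strand) encodes annexin A6, an annexin with a doubled core that forms the repair cap in muscle. It had 11.56, 11.73 and 11.89 in KO and 11.66, 11.78 and 11.87 in WT, a change of -0.06 (95% interval -0.23 to 0.10, adjusted p = 0.641). The directions of Anxa5 and Anxa6 depended on the scaling, since Anxa5 gave -0.01 after a correction for gene length and Anxa6 gave 0.03 after quantile normalization.

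Cav3 and Ahnak, partners of dysferlin at the sarcolemma, did not pass the test either. Cav3 (chr6:112459505-112472872, plus strand, mm10) encodes caveolin-3, the muscle caveolin. Its lowest, median and highest values were 9.99, 10.08 and 10.43 in KO and 9.77, 9.92 and 10.23 in WT, and all 6 KO libraries lay above the WT median. The change was 0.18 (SE 0.10, 95% interval -0.02 to 0.39, limma adjusted p = 0.238), and 0.08 after the length correction. Ahnak (chr19:8989284-9076914, plus strand) encodes a giant scaffold protein that binds dysferlin and the annexin A2 complex. Its values were 11.89, 12.29 and 12.44 in KO and 11.86, 12.01 and 12.34 in WT. The change of Ahnak was 0.18 (SE 0.11, 95% interval -0.05 to 0.42, limma adjusted p = 0.297), and 0.31 after the length correction. KO 2 lay near the bottom of the WT range for Ahnak, while KO 1 and KO 6 lay above all WT libraries.

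The intervals give the range of changes these libraries leave possible. Among the 9 members without a call, the upper bounds ran from 0.10 for Anxa6 to 0.42 for Ahnak and the lower bounds from -0.37 for Myof to -0.01 for Dysf. The test does not show that these genes are equal in KO and WT.

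**Figure D3:**
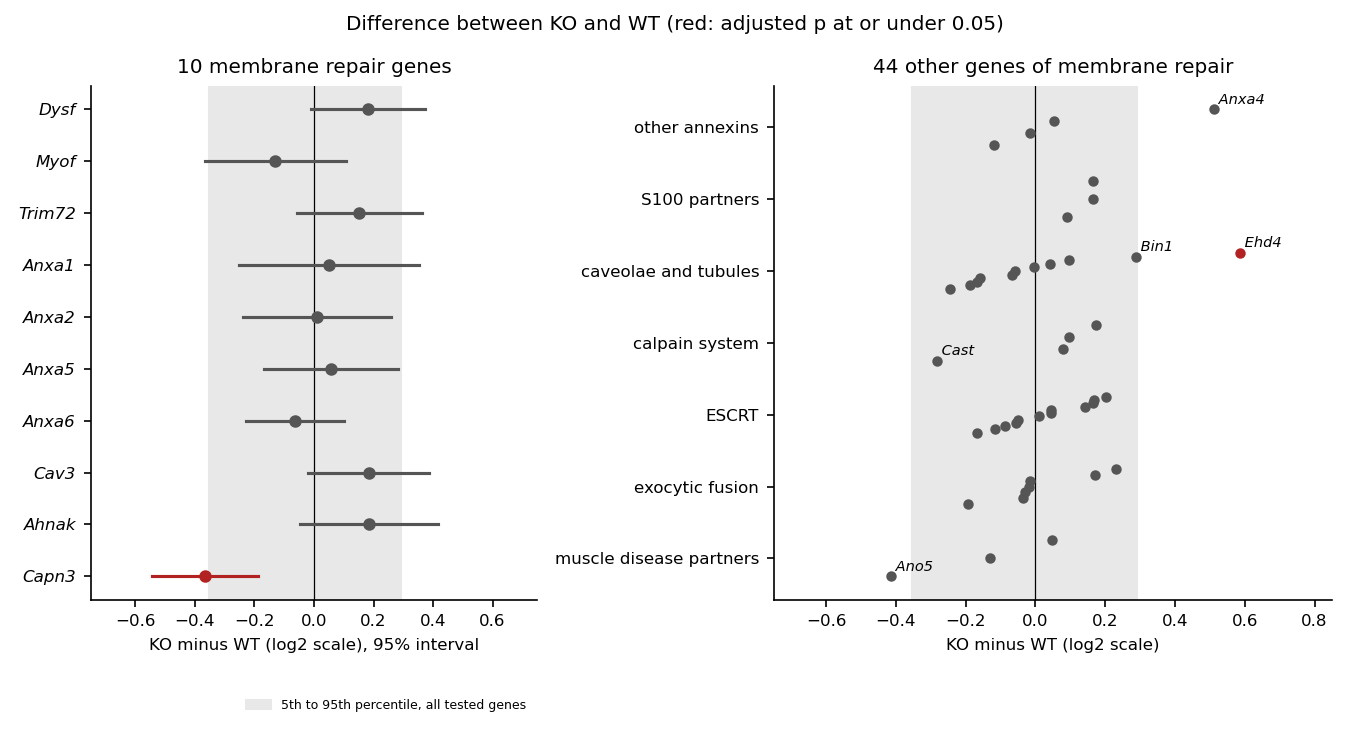
Difference KO minus WT on the log2 scale for the 10 repair genes with 95% intervals (left) and for 44 other genes of membrane repair by list, without intervals (right); red marks adjusted p at or under 0.05. The grey band spans the 5th to 95th percentile of all tested genes, -0.35 to 0.29, and Capn3 (-0.37), Ano5 (-0.42), Anxa4 (0.51) and Ehd4 (0.59) lie outside it.

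Levels per length differed far more between the members than between the genotypes. On a scale of estimated reads per 1000000 reads and per kilobase of annotated exon, Trim72 was highest at 99.8 ± 15.6 in KO and 87.9 ± 9.89 in WT (SD, n = 6 each). Anxa6 followed at 75.3 ± 4.94 in KO and 77.6 ± 4.71 in WT, then Cav3 at 61.4 ± 9.58 in KO and 52.5 ± 5.74 in WT, and Capn3 at 29.4 ± 2.94 in KO and 37.6 ± 2.34 in WT. Ahnak, Anxa5 and Dysf formed a middle group, with means from 14.9 to 16.2 in KO and from 12.9 to 14.8 in WT. Anxa2 averaged 7.28 ± 1.5 in KO and 7.18 ± 1.78 in WT, and Anxa1 3.33 ± 1.17 in KO and 3.05 ± 0.83 in WT. Myof was lowest at 0.297 ± 0.11 in KO and 0.346 ± 0.09 in WT, a level above 8.89% of the tested genes, while the WT level of Trim72 was above 96.8% of them.

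The order of levels was the same in KO and WT apart from Ahnak and Anxa5, which changed places. Neighbours in the WT order whose WT ranges overlapped were Trim72 with Anxa6, Anxa5 with Ahnak, and Ahnak with Dysf. In KO these pairs overlapped too, and so did Anxa6 with Cav3. Anxa5 and Dysf, neighbours in the KO order, overlapped in KO as well. Each of the other neighbouring pairs in the WT order was separated in all libraries of both groups. Annotated exon length counts every isoform, so a gene with rarely used exons has its level understated.

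**Figure D4:**
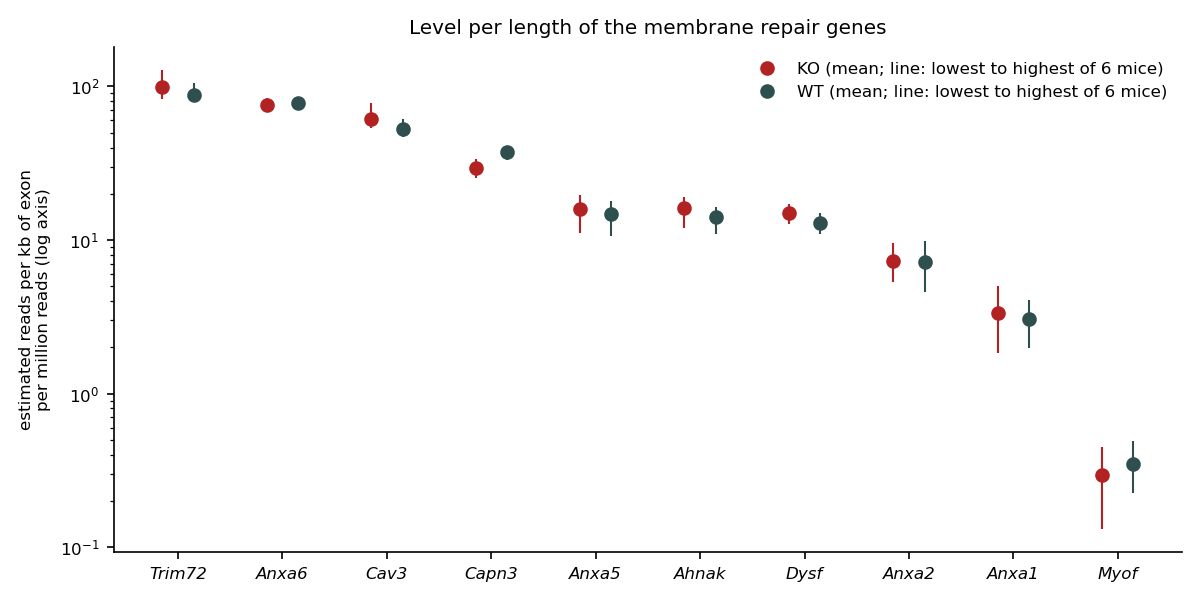
Level of each repair gene in estimated reads per 1000000 reads and per kilobase of annotated exon (log axis) in KO and WT muscle, ordered by the WT mean. Points are means of 6 mice and lines run from the lowest to the highest mouse; Trim72 is highest and Myof lowest in both groups.

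Some libraries were the lowest or highest of their genotype for several members. KO 2 was the lowest KO library for 6 of the 10 members (Dysf, Myof, Trim72, Anxa1, Anxa2 and Ahnak) and the highest for Capn3. KO 6 was the highest KO library for 6 (Dysf, Trim72, Anxa1, Anxa2, Anxa6 and Ahnak). WT 4 was the lowest WT library for Myof, Anxa2, Anxa5 and Ahnak, and WT 5 the highest for Myof, Trim72, Anxa1, Anxa2 and Anxa5. The order was not shared by all members, since WT 4 was the highest WT library for Anxa6 and Cav3 and WT 5 the lowest for Cav3. For Anxa1 this spread ran from 62.2% to 163% of the WT mean among KO libraries and from 71.4% to 128% among WT libraries.

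Fibroblast and macrophage markers were high and low in the same libraries, and endothelial markers were not. The mean of 8 fibroblast markers was 9.92 in KO 6 and 9.20 in KO 2, against 9.93 in WT 5 and 8.87 in WT 4. The mean of 8 macrophage markers was 7.72 in KO 6 and 6.95 in KO 2, against 7.75 in WT 5 and 6.82 in WT 4. These were the highest and lowest libraries of their groups for both lists, except that the fibroblast mean of KO 5 (9.15) lay below that of KO 2. For the mean of 8 endothelial markers, KO 6 was the lowest KO library and KO 3 the highest, and WT 2 was the lowest WT library and WT 1 the highest. In summed reads, the fibroblast list took 392 to 747 reads per 1000000 in KO and 282 to 766 in WT, and the macrophage list 30.8 to 89.2 in KO and 23.2 to 96.2 in WT. No marker of either list was called, and their part in the spread of the annexins was not tested. The 4 libraries were singled out after their values were seen.

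**Figure D5:**
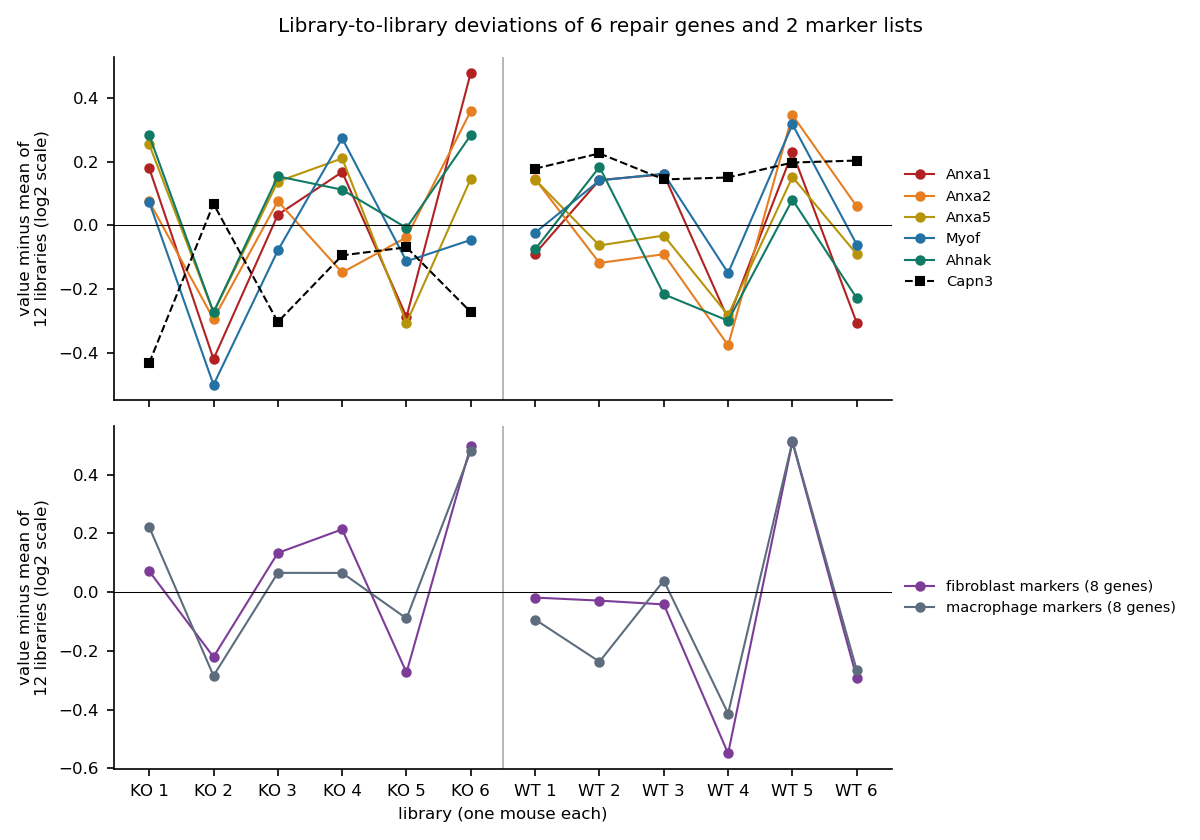
Deviation of each library from the mean of 12 libraries (log2 scale) for 6 repair genes (top) and for the means of the fibroblast and macrophage markers (bottom). The 6 genes are Anxa1, Anxa2, Anxa5, Myof, Ahnak and Capn3. Lines join libraries of 1 group only as a guide; KO 6 and WT 5 lie high and KO 2 and WT 4 low for most of the genes drawn and for both lists, while Capn3 is highest among KO libraries in KO 2. Dysf, Trim72, Anxa6 and Cav3 are not drawn. WT 4 was the highest WT library for Anxa6 and Cav3, and WT 5 the lowest for Cav3.

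None of the 9 cell type marker lists with tested genes had an adjusted p under 0.05 for the difference of its mean between KO and WT. The closest were the 7 smooth muscle and pericyte markers, 8.91 ± 0.09 in KO and 9.23 ± 0.21 in WT (SD, n = 6 each; exact permutation p = 0.0173, adjusted p = 0.117). All 7 of their estimates were negative, and Myh11 fell among them (-0.54, limma adjusted p = 0.0418). The 3 tested adipocyte markers averaged 6.36 ± 0.22 in KO and 6.76 ± 0.28 in WT (exact permutation p = 0.026, adjusted p = 0.117), with a fall of Adipoq (-0.34, limma adjusted p = 0.0432). Of 5 tested satellite cell markers, Cdh15 fell by 0.37 (limma adjusted p = 0.0341) and the other 4 were not called. Of the 5 estimates 3 were positive and 2 negative, with a median of 0.06, and the list mean was 7.22 ± 0.04 in KO and 7.24 ± 0.05 in WT (SD, n = 6 each). In summed reads, where Cdh15 weighs most, the satellite cell list took 29.4 to 33.1 reads per 1000000 in KO and 34.6 to 38.4 reads per 1000000 in WT, with no overlap, and its part in the fall of Capn3 was not tested. The fibroblast list gave 9.49 ± 0.29 in KO and 9.35 ± 0.35 in WT, and the macrophage list 7.31 ± 0.26 in KO and 7.16 ± 0.33 in WT (adjusted p = 0.553 for both by exact permutation). The myofibre, endothelial and tenocyte lists also had an adjusted p of 0.553, as did satellite cells, and the Schwann cell list had 0.693.

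A wider list of membrane repair genes was read from the same fit. It held 55 genes beyond the 10 members, of which 52 matched a symbol in the table and 44 passed the filter. Of these 44, Ehd4 rose, none fell and 43 were not called, beside 3.12% and 3.09% over all tested genes. Without adjustment, 13 of the 44 had p at or under 0.05, beside 26.0% of all tested genes. There were 22 positive and 22 negative estimates, with a median of 0.00.

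Ehd4 encodes an EH-domain ATPase that shapes endocytic membranes, a relative of the EHD proteins found at caveolae and repair sites. Its lowest, median and highest values were 9.58, 10.05 and 10.21 in KO and 9.13, 9.44 and 9.65 in WT. KO 2 lay inside the WT range and the other 5 KO libraries above it. The mean was 10.01 ± 0.23 in KO and 9.42 ± 0.18 in WT (SD, n = 6 each), so that KO minus WT was 0.59 (SE 0.11, limma adjusted p = 0.00778), and the call held without any 1 library (adjusted p from 0.000229 to 0.0238). The other 10 genes of caveolae and tubules were not called. They included the cavin genes, listed under their older symbols Ptrf, Sdpr, Prkcdbp and Murc, with changes from -0.25 for Sdpr to 0.10 for Ptrf. Bin1, a gene of T-tubule formation named here after its values were seen, gave 0.29 (limma adjusted p = 0.133). Without WT 4, where 881 of all tested genes were called, Bin1 gave 0.37 (limma adjusted p = 0.0418).

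The other lists gave no call in the reported fit. Of 4 tested annexins outside the set, Anxa4 came closest, with 8.53 ± 0.40 in KO and 8.02 ± 0.15 in WT (SD, n = 6 each) and a change of 0.51 (SE 0.15, limma adjusted p = 0.0576). KO 2 was its lowest KO library at 7.94. The change was 0.63 without KO 2 (limma adjusted p = 0.00368) and 0.56 without KO 4 (adjusted p = 0.0482). Over all tested genes, 1516 were called without KO 2 and 964 without KO 4. Anxa7 gave -0.12 (adjusted p = 0.556). Among the 3 S100 genes whose proteins bind annexins, S100a6 gave 0.16 (adjusted p = 0.32) and S100a10 also 0.16 (adjusted p = 0.559).

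In the calpain system, the gene of the m-calpain catalytic subunit, Capn2, gave 0.17 (SE 0.07, limma adjusted p = 0.112). Cast, the gene of the calpain inhibitor calpastatin, gave -0.28 (SE 0.12, adjusted p = 0.143). None of the 4 tested genes of this list, which leaves out Capn3, was called, although Capn2 was with quantile normalization (0.25, adjusted p = 0.0447). Of 12 tested genes of the ESCRT machinery, which pinches off damaged membrane, the smallest p-values were those of Tsg101 (0.17, limma adjusted p = 0.153) and Chmp2a (0.20, adjusted p = 0.176).

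Among 7 genes of vesicle fusion, the plasma membrane SNARE gene Stx4a gave 0.23 (limma adjusted p = 0.122), and the acid sphingomyelinase gene Smpd1 gave -0.19 (adjusted p = 0.127). Without KO 2, where 1516 of the 12203 tested genes were called, Stx4a gave 0.28 and Smpd1 -0.24 (limma adjusted p = 0.0481 for both). Ano5, an anoctamin gene mutated in a limb-girdle dystrophy with defective repair, gave -0.42 (SE 0.14, adjusted p = 0.0769). Its lowest, median and highest values were 10.74, 11.45 and 11.56 in KO and 11.43, 11.72 and 11.91 in WT, so the groups overlapped although all 6 KO libraries lay below the WT median. Bves, a membrane protein gene of muscle, gave -0.13 (adjusted p = 0.291). The ferlin genes Otof, Fer1l4 and Fer1l5 had at most 9.95 estimated reads in any library and were not tested.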

How the data were processed

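Poly-A RNA of gastrocnemius from 6 KO and 6 WT mice was sequenced after NEBNext Ultra library preparation, which does not record strand, per the labels' protocols. Reads went through fastp, STAR and featureCounts with the build mm10, per the submitters' processing notes, which list no versions. The authors deposited 1 table of 24528 symbols with values on a log2 scale. For its transformation and annotation, no source used here gives a name. All columns share 1 lowest value, 5.57, the shape of a variance-stabilizing transformation, which compresses differences between low values.

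The closed form of that transformation was inverted to scaled reads, and the repeating step among low values gave the size of 1 read in each library. Within 0.1 of a whole number lay 89.7% to 93.5% of low values, so estimated reads are approximate. They served for the filter, depth, percent levels, levels per length and some alternatives. Estimated totals ran from 12268065 to 18709281 reads.

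The test took the 12203 genes that had 10 or more estimated reads in 6 or more libraries, and used limma 3.58.1 in R 4.3.3 on the deposited log2 values, with genotype alone in the model, a variance trend and robust moderation. Two-sided p-values had Benjamini-Hochberg adjustment over all tested genes at a threshold of 0.05. The fit was also run on simulated data, with independent normal noise in each gene and no differences between whole libraries. Single values were compared by exact two-sided permutation over 924 assignments. Changes are KO minus WT. Alternatives covered filters, moderation, library weights, pseudocounts of 1 and 0.1 on scaled reads, limma-voom with a trimmed mean scaling, 2 scalings, a replicate block, gene length (GENCODE M21, 11974 tested genes with a length) and each library left out.

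The members and lists were chosen with earlier results of these data known. Named genes are all members, Ank2, each called gene of a wider list or else its 2 smallest p-values, and the 3 tested genes most like each called member. Promoter sequences are from RefSeq on GRCm38.p6, where 9 of 10 members matched (not Anxa6). Error from counting reads is part of each value, and no source used here describes molecular identifiers, so PCR copies may count as reads. Each library is a separate mouse per the labels.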

Additional observations from a re-analysis of the deposited data

Results flagged for a closer look

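For 26 groups of 6 libraries (10 members, Ehd4, Ank2 and estimated depth in each genotype), the gap of the highest or lowest library to its neighbour was set against the range of the group. In 1 group the gap passed the 95% critical value of 0.625. Ehd4 was 9.58 in KO 2, against 9.995 in the next KO library and 10.21 in the highest, a gap of 0.656 of the range. Chance flags about 1 in 20 groups. KO 2 was also the lowest KO library for 6 of the 10 repair genes and the nearest to WT for Capn3.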

How the results depend on the processing

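Of the 10 members, 0 were called higher under every setting and without each library, and 1, Capn3, was called lower under all 11 other settings, with changes from -0.38 to -0.29. The number of members called lower ran from 0 to 1 when single libraries were left out, being 0 without KO 3, KO 6, WT 2 or WT 3. Calls over all genes ran from 106 to 683 higher and from 88 to 833 lower in that way, and 614 were lower with library weights. Among the 44 other repair genes, those called higher ran from 1 to 3 without single libraries and those called lower from 0 to 1. Higher calls there were 2 with library weights, 3 with quantile normalization and 2 with the replicate block, where Anxa4 joined Ehd4 in each and Capn2 in the second. Signs turned for Anxa5 with the length correction (-0.012) and for Anxa6 with quantile normalization (0.026). Without single libraries Anxa1 ran from -0.039 to 0.14 and Anxa2 from -0.063 to 0.081. The cause was not tested. Ank2 gave from -1.57 to -0.98 under other settings. The KO to WT ratio of estimated depth was 1.15, and from 1.11 to 1.19 without single libraries (exact permutation p from 0.026 to 0.147). Without single libraries, the adipocyte marker difference of -0.40 ran from -0.50 to -0.35 and the Schwann marker difference of -0.14 from -0.39 to 0.053.

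Replicate numbers are shared by KO and WT in the labels. Deviations of same-numbered libraries correlated between -0.36 and 0.29, and 2 of 6 numbers matched best with their own. Such correlations cannot show whether same-numbered mice shared a litter or a batch. With the replicate block 356 genes were called higher and 455 lower, and Capn3 gave -0.37 (adjusted p = 0.0295). Depth limits Myof most, at 22.1 estimated reads in KO 2.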
